A study of Mus musculus with 15 samples.

Results

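Heat shock chaperones are proteins that hold, fold or hand on other proteins, and 10 genes of this kind were followed here in inflamed and control mouse ears: Hspa1a, Hspa1b, Hspa8, Hsph1, Hsp90aa1, Hspb1, Hspd1, Hspe1, Dnajb1 and Bag3. They were chosen by symbol, and are 10 of the 48795 genes counted in each library and 10 of the 14991 genes with enough reads to test. Messenger RNA came from ears of female mice aged 5 weeks in 3 groups, PMA_1002 (n = 6 libraries), PMA_ethanol (n = 4) and Control (n = 5). PMA, a phorbol ester, switches on protein kinase C and irritates skin, and PMA_1002 adds the innate defense regulator peptide in the title of the series, which asks how that peptide acts against sterile inflammation. The labels place every library, the control ones included, in the PMA ear inflammation model and name ethanol only for PMA_ethanol. What the control ears and the peptide ears received besides, the doses, the times and the strain are not in the labels, so an effect of the peptide and one of a differing vehicle cannot be told apart. Nothing in the labels says that libraries of a group came from separate animals, and p-values then measure the spread between libraries, which may be technical.

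Cells keep most of these genes at a working level and raise several of them when proteins unfold, through heat shock factor 1, a transcription factor that binds inverted repeats of the bases GAA in their promoters. HSP70 proteins grip unfolded stretches, J proteins such as Dnajb1 bring them clients, and exchange factors such as Hsph1 and Bag3 make them let go. HSP90 then finishes signalling proteins, the HSP60 barrel folds proteins inside mitochondria, and small heat shock proteins such as Hspb1 hold unfolded proteins without using ATP. In skin, Hspb1 is known from the differentiating layers of the epidermis.

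Hspa1a and Hspa1b, the pair of stress-inducible HSP70 genes, lie beside each other on the minus strand of chromosome 17 (GRCm38, 34969190 to 34972156 and 34956436 to 34959238). Their promoter windows are printed because the pair moved unlike Hspa8, the main HSP70 of unstressed cells, and because the copies are so alike that their reads are hard to part. In the RefSeq windows on GRCm38.p6, 250 bases before the start and 50 after it, the copies differed at 4 of 300 bases. The last 120 bases before each start are shown 5′ to 3′, at chr17:34972157-34972276 for Hspa1a and at chr17:34959239-34959358 for Hspa1b, with a GAA and a TTC unit facing each other 2 bases apart (GAANNTTC) in capitals, from base -104 to base -97.
Hspa1a: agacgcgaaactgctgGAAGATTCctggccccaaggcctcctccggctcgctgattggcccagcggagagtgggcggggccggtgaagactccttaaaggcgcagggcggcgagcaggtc
Hspa1b: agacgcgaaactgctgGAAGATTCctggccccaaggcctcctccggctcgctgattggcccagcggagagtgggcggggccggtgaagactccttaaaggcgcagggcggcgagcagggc

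The same search covered both orders of the units, GAANNTTC and TTCNNGAA, which read alike on either strand and can overlap by one unit. Of the 8 genes with a window, all except Dnajb1 held a 2-unit match, and Hsph1, Hspd1 and Hspe1 held 3 or more units in a row. Hspd1 and Hspe1 share 1 such stretch, and the Hspa1a and Hspa1b windows are near copies, so the genes are not separate cases. Among all 27025 genes with windows, 17.0% held a 2-unit match and 0.662% held 3 or more units in a row. Of their 32851 windows 15.1% (7.86% GAANNTTC, 8.52% TTCNNGAA) held a 2-unit match and 0.603% the longer one. Hspa8 and Hsp90aa1 were not searched. A stretch of 30 bases around the match is shown for 3 genes that stand for the exchange factors, the mitochondrial pair and the small heat shock proteins, with the matched units and the bases between them in capitals. The Hspe1 stretch, chr1:55088053-55088082 on the plus strand, lies between the RefSeq start sites of Hspe1 and of Hspd1 window 1. From these starts the genes are read away from each other, and the same bases on the other strand belong to that Hspd1 window. Hspd1 window 2, chr1:55088194-55088493 on the minus strand, held no match. From its start the stretch lies within Hspd1, as GENCODE draws it. The Hsph1 stretch, chr5:149636279-149636308 on the minus strand, lies just inside the transcript, and the Hspb1 stretch is chr5:135887801-135887830 on the plus strand. A match describes letters and says nothing of binding.
Hsph1: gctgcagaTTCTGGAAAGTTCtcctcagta
Hspb1: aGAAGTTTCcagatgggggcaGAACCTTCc
Hspe1: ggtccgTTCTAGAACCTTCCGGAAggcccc

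Libraries held 2656680 (PMA_ethanol library 3) to 28585995 (PMA_1002 library 5) reads in genes, and the members had between 77 and 18603 reads in any library. Levels below are CPM, read counts scaled to a common depth with TMM factors, which set the bulk of genes level between libraries. A gene is said to have risen or fallen where edgeR's quasi-likelihood test gave a Benjamini-Hochberg adjusted p under 0.05 over all 14991 genes, and standard errors (SE) are of log2 fold changes. In whole tissue, fewer cells of a type and less RNA per cell cannot be told apart. Keratinocyte, macrophage, fibroblast and endothelial markers were detected in every group.

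With PMA and ethanol the group split. PMA_ethanol ears had more mRNA of 7 chaperones than Control ears, namely Hspa8, Hsph1, Hsp90aa1, Hspd1, Hspe1, Dnajb1 and Bag3, with folds from 1.87 to 3.07. They had less of Hspa1a and Hspa1b, the inducible HSP70 genes, at 0.738 and 0.709 times Control, while Hspb1 was not called. So 9 of 10 were called, beside 68.4% of all genes tested, 7 rose beside 32.5% and 2 fell beside 35.9%. In all 9 the libraries of the groups did not overlap, but the share of all genes for which this holds was not counted. The median log2 fold change of the 10 was 0.95, against -0.07 over all genes.

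PMA_1002 ears differed from PMA_ethanol ears in 6 of 10 genes, beside 35% of all genes tested. Hspa1a, Hspa1b and Hspb1 rose, 3 of 10 beside 17% of all genes, and Hspa8, Hsp90aa1 and Bag3 fell, 3 of 10 beside 18%. The other 4 (Hsph1, Hspd1, Hspe1, Dnajb1) had log2 fold changes between -0.28 and -0.15 and adjusted p between 0.0549 and 0.229, which does not show that they were alike. Against Control, PMA_1002 ears had 7 of 10 called, beside 55% of all genes, and all 7 rose, beside 28.4%. None of the 10 fell, beside 26.7%, in edgeR or in DESeq2, since all 10 fold changes were above 0 in both. The 3 comparisons share libraries, so their fold changes are set side by side and not counted as independent. Against the medians of all genes, 0.03 and -0.03, the medians of the 10 were -0.26 for PMA_1002 versus PMA_ethanol and 0.72 for PMA_1002 versus Control.

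**Figure D1:**
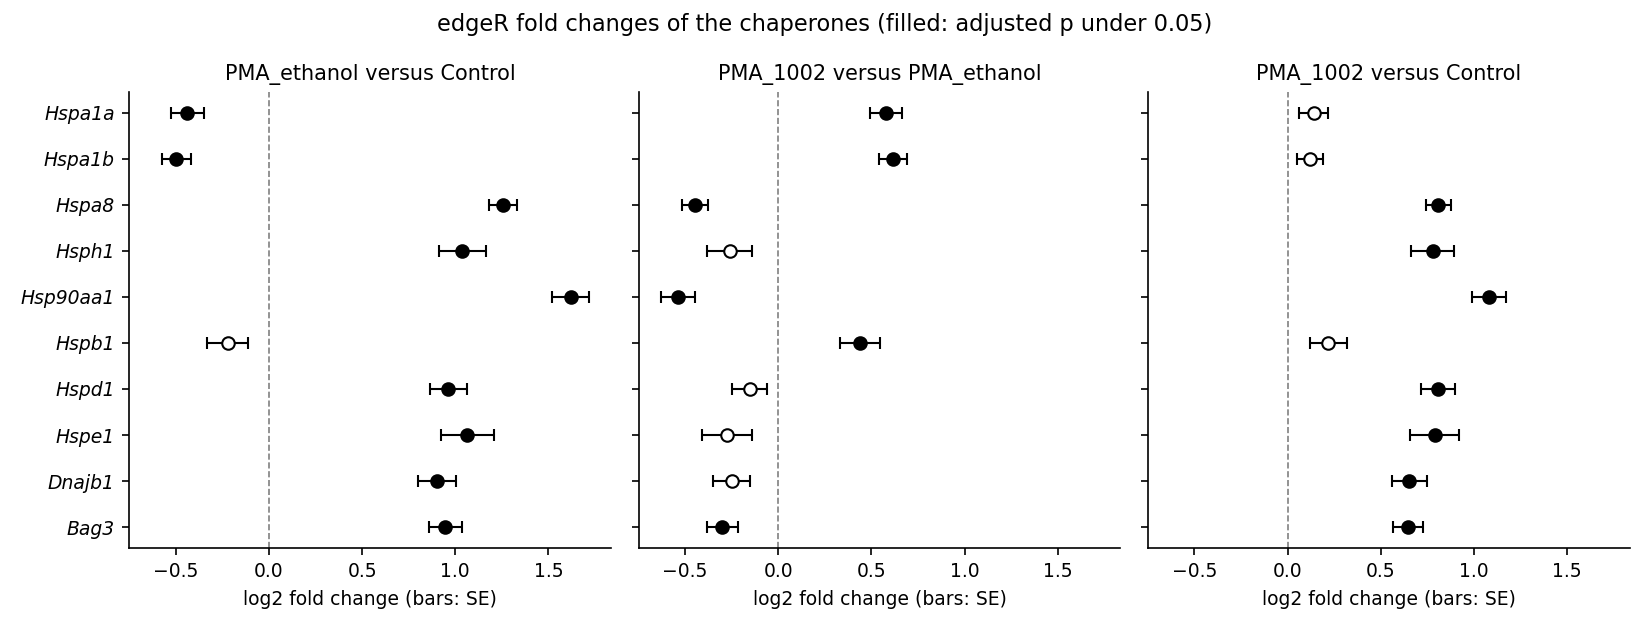
Log2 fold change (x axis) of each of the 10 chaperones (rows) in the 3 comparisons (panels), with bars of 1 SE and filled points for adjusted p under 0.05. With PMA_ethanol versus Control 7 genes lie right of 0, up to 1.62 for Hsp90aa1, and Hspa1a, Hspa1b and Hspb1 left of it. The panels share libraries.

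Of the inducible HSP70 genes, Hspa1a had 55.2 to 70.1 CPM in PMA_1002 libraries (median 62.2), against 42.9, 36.5, 44.0 and 44.5 CPM in PMA_ethanol libraries and 58.3, 58.9, 51.9, 58.6 and 55.4 CPM in Control libraries. Each PMA_ethanol library was below every library of the other groups, and PMA_1002 and Control overlapped. The log2 fold change was -0.44 (SE 0.088, adjusted p = 0.000296, edgeR) for PMA_ethanol versus Control and 0.58 (SE 0.085, adjusted p = 5.81e-05) for PMA_1002 versus PMA_ethanol. For PMA_1002 versus Control it was 0.14, with a 95% interval from -0.01 to 0.29 (adjusted p = 0.139, edgeR).

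Hspa1b, which encodes almost the same protein, had 134 to 144 CPM in PMA_1002 libraries (median 141), against 99.2, 81.6, 92.5 and 92.7 CPM in PMA_ethanol libraries and 134, 113, 120, 131 and 146 CPM in Control libraries. The order was that of Hspa1a, with PMA_ethanol apart and below. PMA_ethanol differed from Control by a log2 fold change of -0.50 (SE 0.077, adjusted p = 2.17e-05, edgeR), and PMA_1002 from PMA_ethanol by 0.62 (SE 0.075, adjusted p = 8.14e-06). PMA_1002 versus Control gave 0.12, with a 95% interval from -0.01 to 0.26 (adjusted p = 0.145, edgeR). In upper-quartile scaling that last difference was -0.04 for Hspa1b and -0.02 for Hspa1a, so its direction is not settled. For PMA_ethanol versus Control that scaling gave -0.68 for Hspa1a, further from 0.

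Reads of the copies are uncertain, because 58.8% of the stretches of 50 bases in Hspa1a transcripts also occur in Hspa1b transcripts, and reads with several positions were left out of the gene counts. Such reads made up 16.9% to 18.8% of the table in PMA_1002, 18.6% to 20.1% in PMA_ethanol and 15.98% to 17.86% in Control, so PMA_ethanol lay above Control with no overlap. Reads in no gene, these included, made up 28.8% to 31.0% in PMA_1002, 31.1% to 32.8% in PMA_ethanol and 28.5% to 30.05% in Control. The part of these reads in the counts of the pair was not tested. Gm20481, a gene on the opposite strand within Hspa1a (34969912 to 34972136), held 181 reads over all 15 libraries. As strand use in the counting is not known, Hspa1a reads in that span may have gone uncounted. Hspa1a may thus read too low beside Hspa1b, which was not tested. Added into one row, the pair averaged 202 ± 8.13 CPM in PMA_1002 (SD, n = 6), 133 ± 10.5 CPM in PMA_ethanol (SD, n = 4) and 186 ± 13.0 CPM in Control (SD, n = 5). The sum fell with PMA_ethanol versus Control (log2 fold change -0.48, SE 0.073, adjusted p = 1.73e-05, edgeR) and rose with PMA_1002 versus PMA_ethanol (0.60, SE 0.070, adjusted p = 5.71e-06). Its PMA_1002 versus Control value was 0.13 (SE 0.065, adjusted p = 0.11, edgeR), or -0.03 in upper-quartile scaling. No shift between the copies was detected. Hspa1b had 198 to 251 reads per 100 Hspa1a reads in PMA_1002, 208 to 232 in PMA_ethanol and 192 to 264 in Control, with adjusted p of at least 0.674 in two-sided exact permutation tests over libraries.

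Keratinocyte markers moved the same way as the pair. The 5 basal markers, led by Krt14 and Krt5, summed to 10512 to 11896 CPM in PMA_1002, 6411 to 8287 CPM in PMA_ethanol and 9633 to 12347 CPM in Control. The 5 differentiation markers, led by Krt10 and Lor, summed to 16769 to 19465 CPM in PMA_1002, 7852 to 11042 CPM in PMA_ethanol and 14970 to 21012 CPM in Control, and in each list 4 of 5 rose with PMA_1002 versus PMA_ethanol. With PMA_ethanol versus Control, 3 of 5 basal and 4 of 5 differentiation markers fell and 1 basal marker rose. No marker of either list was at 0 in a group. Their part in the levels of Hspa1a, Hspa1b and Hspb1 was not tested.

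Hspa8, the constitutive HSP70 that serves unstressed cells, had 509 to 656 CPM in PMA_1002 libraries (median 620), against 825, 809, 869 and 789 CPM in PMA_ethanol libraries and 336, 359, 345, 350 and 332 CPM in Control libraries. The groups were fully apart, with PMA_1002 in between. PMA_ethanol versus Control gave a log2 fold change of 1.26 (SE 0.074, adjusted p = 1.93e-10, edgeR), PMA_1002 versus PMA_ethanol gave -0.45 (SE 0.071, adjusted p = 0.000114) and PMA_1002 versus Control gave 0.81 (SE 0.068, adjusted p = 4.87e-08). Hspa8 thus rose where its inducible relatives fell. It shares 39.4% of its 50-base stretches with transcripts of 16 other genes, Gm15459 first among them, and its reads too may be undercounted.

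Within each library, the inducible pair had 33.7 ± 3.47 reads per 100 Hspa8 reads in PMA_1002 (SD, n = 6), 16.2 ± 1.32 in PMA_ethanol (SD, n = 4) and 54.0 ± 5.22 in Control (SD, n = 5). This ratio needs no scaling between libraries, and it was chosen after the values of the genes were seen. PMA_1002 libraries held 30.5 to 40.4, PMA_ethanol libraries 14.6 to 17.4 and Control libraries 47.9 to 60.7, with no overlap. The log2 difference was -1.73 for PMA_ethanol minus Control (two-sided exact permutation p = 0.00794, adjusted p = 0.0238 over 9 ratio tests). For PMA_1002 minus PMA_ethanol it was 1.05 (exact permutation p = 0.00476, adjusted p = 0.0214), and for PMA_1002 minus Control it was -0.68 (exact permutation p = 0.00217, adjusted p = 0.0195). Each p is the smallest that the number of libraries allows. The ratio shows unequal change of the genes and not which of them moved.

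**Figure D2:**
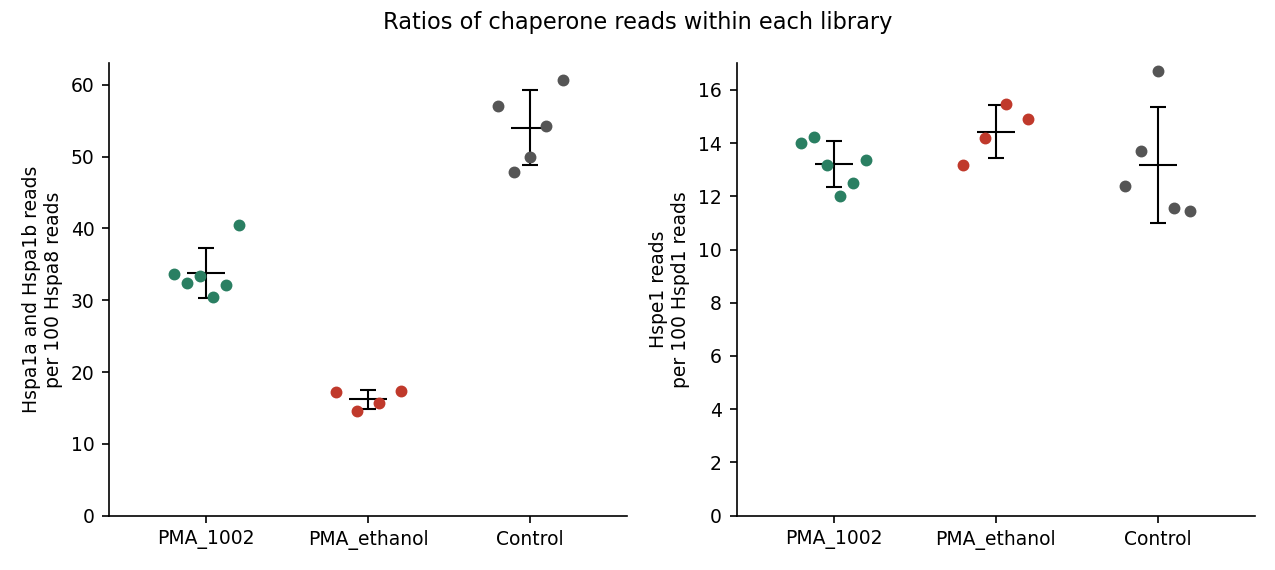
Reads of Hspa1a and Hspa1b per 100 Hspa8 reads (left, y axis) and of Hspe1 per 100 Hspd1 reads (right, y axis) in each library (points), with the mean and SD of PMA_1002 (n = 6), PMA_ethanol (n = 4) and Control (n = 5). On the left the 3 groups do not overlap and PMA_ethanol is lowest, at 14.6 to 17.4. On the right all groups overlap, between 11.4 and 16.7.

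Hsph1, the HSP110 that releases substrates from HSP70 and helps to dissolve aggregates, had 38.6 to 53.7 CPM in PMA_1002 libraries (median 44.0), against 55.8, 49.8, 68.0 and 44.8 CPM in PMA_ethanol libraries and 27.7, 23.1, 24.9, 27.0 and 29.0 CPM in Control libraries. Both PMA groups lay above Control and overlapped each other. The log2 fold change was 1.04 (SE 0.126, adjusted p = 1.37e-06, edgeR) for PMA_ethanol versus Control and 0.78 (SE 0.116, adjusted p = 2.8e-05) for PMA_1002 versus Control. PMA_1002 versus PMA_ethanol was not called at -0.26, with a 95% interval from -0.49 to -0.03 (adjusted p = 0.101, edgeR). It was called without PMA_ethanol library 4 (-0.34, adjusted p = 0.0413) and came nearer to 0 without PMA_ethanol library 3 (-0.15, adjusted p = 0.342). No stretch of 50 bases of Hsph1 occurs in another gene's transcripts.

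Dnajb1, a J protein that delivers clients to HSP70 and stimulates its ATP use, had 117 to 170 CPM in PMA_1002 libraries (median 148), against 198, 162, 144 and 183 CPM in PMA_ethanol libraries and 97.5, 88.0, 94.5, 88.2 and 91.5 CPM in Control libraries. All PMA libraries exceeded all Control libraries. It rose by 0.90 (SE 0.102, adjusted p = 5.71e-07, edgeR) for PMA_ethanol versus Control and by 0.65 (SE 0.093, adjusted p = 1.89e-05) for PMA_1002 versus Control on the log2 scale. Between the PMA groups the value was -0.25 (SE 0.097, adjusted p = 0.0549, edgeR), just above the threshold, and DESeq2 called it (-0.29, adjusted p = 0.0204). It was also called without PMA_ethanol library 3 (-0.32, adjusted p = 0.0209) and without PMA_1002 library 1 (-0.31, adjusted p = 0.0213).

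Bag3, a cochaperone that unloads HSP70 and routes damaged proteins to autophagy, had 97.4 to 121 CPM in PMA_1002 libraries (median 105), against 151, 110, 134 and 130 CPM in PMA_ethanol libraries and 68.5, 71.8, 65.8, 72.1 and 61.8 CPM in Control libraries. Control lay below both PMA groups. PMA_ethanol versus Control gave a log2 fold change of 0.95 (SE 0.088, adjusted p = 5.15e-08, edgeR) and PMA_1002 versus Control gave 0.65 (SE 0.080, adjusted p = 4.21e-06). Bag3 fell by 0.30 (SE 0.083, adjusted p = 0.00971, edgeR) with PMA_1002 versus PMA_ethanol, where the libraries overlapped, and lost that call without PMA_ethanol library 1 (-0.22, adjusted p = 0.0569).

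Hsp90aa1, the stress-responsive cytosolic HSP90 that matures kinases and steroid receptors, had 157 to 220 CPM in PMA_1002 libraries (median 192), against 280, 266, 275 and 271 CPM in PMA_ethanol libraries and 81.7, 76.0, 97.5, 94.2 and 94.5 CPM in Control libraries. No libraries of different groups overlapped. Its log2 fold change for PMA_ethanol versus Control, 1.62 (SE 0.099, adjusted p = 3e-10, edgeR), was the highest of the 10. PMA_1002 versus PMA_ethanol gave -0.54 (SE 0.093, adjusted p = 0.000272, edgeR), and PMA_1002 versus Control gave 1.08 (SE 0.091, adjusted p = 5.06e-08). Transcripts of 4 other genes, mostly Gm12346, share 47.5% of its 50-base stretches.

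The mitochondrial partners Hspd1, which forms the HSP60 barrel, and Hspe1, its HSP10 lid, overlap head to head on chromosome 1. Hspd1 had 155 to 218 CPM in PMA_1002 libraries (median 210), against 218, 218, 244 and 201 CPM in PMA_ethanol libraries and 108, 104, 123, 111 and 117 CPM in Control libraries. Every PMA library was above every Control library, and the PMA groups overlapped. It rose by 0.96 (SE 0.100, adjusted p = 2.06e-07, edgeR) with PMA_ethanol versus Control and by 0.81 (SE 0.092, adjusted p = 1.48e-06) with PMA_1002 versus Control on the log2 scale. PMA_1002 versus PMA_ethanol gave -0.15, with a 95% interval from -0.34 to 0.03 (adjusted p = 0.229, edgeR), and -0.10 without PMA_1002 library 6 (adjusted p = 0.394).

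Hspe1 had 20.7 to 29.0 CPM in PMA_1002 libraries (median 26.7), against 28.6, 31.0, 37.7 and 29.9 CPM in PMA_ethanol libraries and 13.4, 14.3, 20.6, 12.8 and 13.4 CPM in Control libraries. Control library 3 stood above the other Control libraries and just under the lowest PMA_1002 library. The log2 fold change was 1.06 (SE 0.142, adjusted p = 3.93e-06, edgeR) for PMA_ethanol versus Control and 0.79 (SE 0.130, adjusted p = 7.6e-05) for PMA_1002 versus Control. Between the PMA groups it was -0.28, with a 95% interval from -0.54 to -0.01 (unadjusted p = 0.0541, adjusted p = 0.12, edgeR). That interval is a normal approximation, and the unadjusted p was not under 0.05. Per 100 Hspd1 reads there were 13.2 ± 0.853 Hspe1 reads in PMA_1002, 14.4 ± 0.991 in PMA_ethanol and 13.2 ± 2.18 in Control (SD, n = 6, 4 and 5), with adjusted p of 0.225 or more in exact permutation tests. Without known strand use in the counting, reads in the overlap of the pair cannot be assigned, and the 42.1% of Hspd1 stretches and 22.8% of Hspe1 stretches found in other transcripts, many from Hspd1-ps3 for Hspd1, add to that.

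Hspb1, the small heat shock protein of the epidermis, had 131 to 183 CPM in PMA_1002 libraries (median 158), against 113, 96.2, 143 and 120 CPM in PMA_ethanol libraries and 151, 134, 140, 125 and 132 CPM in Control libraries. All groups overlapped. It rose with PMA_1002 versus PMA_ethanol (log2 fold change 0.44, SE 0.107, adjusted p = 0.00423, edgeR). PMA_ethanol versus Control gave -0.22 (SE 0.111, adjusted p = 0.0862, edgeR), which was called without PMA_ethanol library 3, the shallowest (-0.31, adjusted p = 0.0184), and nearer to 0 without PMA_ethanol library 2 (-0.13, adjusted p = 0.309). PMA_1002 versus Control gave 0.22 (SE 0.099, adjusted p = 0.0702, edgeR), called without PMA_1002 library 4 (0.27, adjusted p = 0.0272) and 0.06 in upper-quartile scaling (adjusted p = 0.602). Hsp25-ps1 holds most of the 50.1% of its stretches that other transcripts share.

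**Figure D3:**
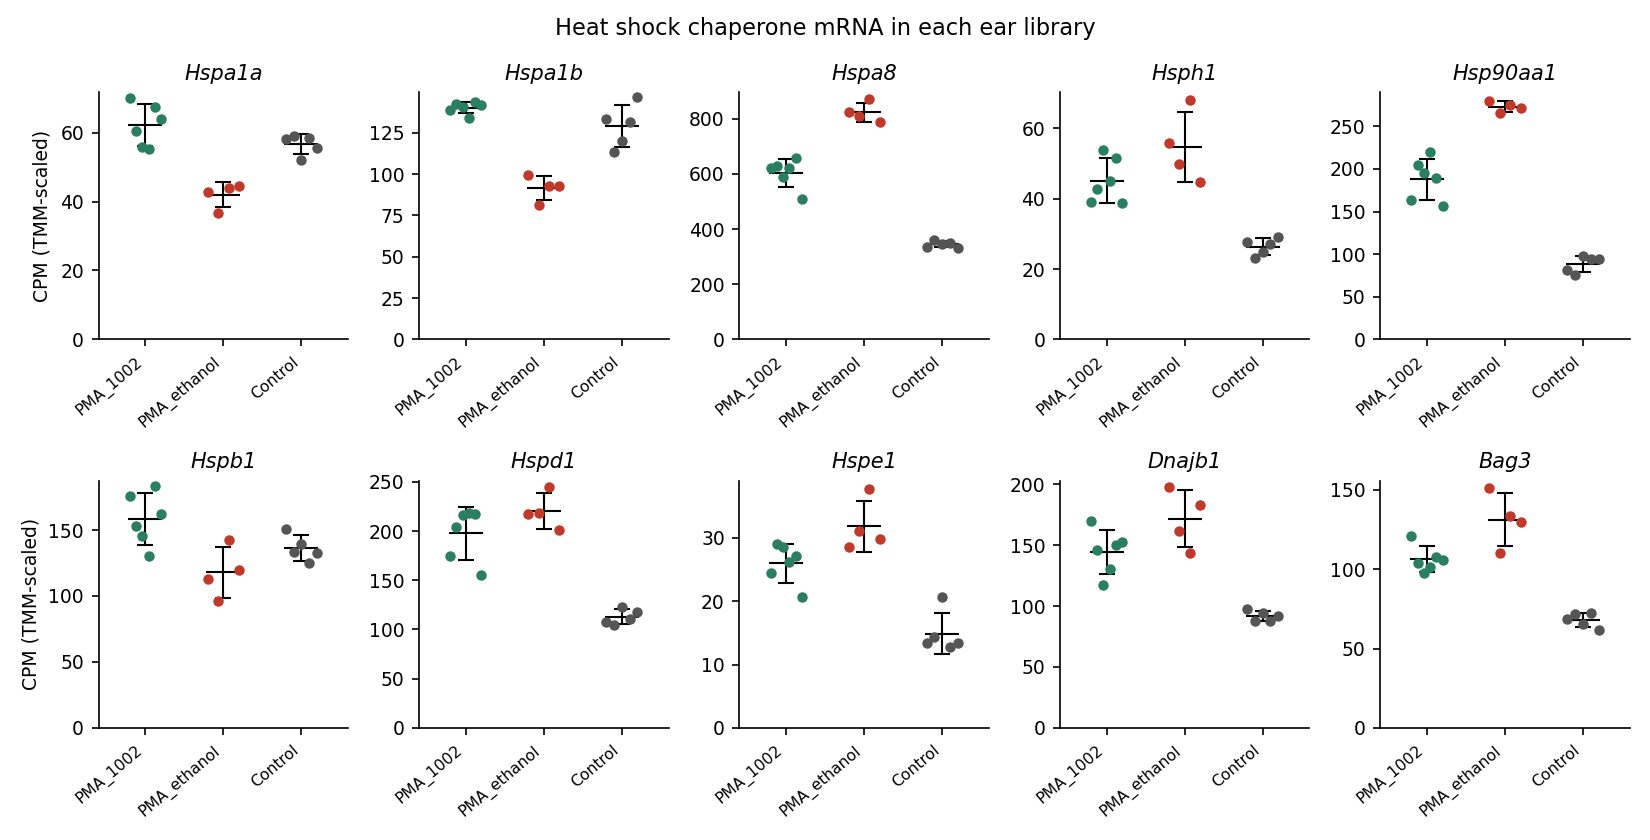
CPM (y axis, each from 0) of the 10 chaperones (panels) in each library (points) of PMA_1002 (n = 6), PMA_ethanol (n = 4) and Control (n = 5), with the mean and SD. PMA_ethanol is lowest for Hspa1a and Hspa1b and highest for Hspa8 and Hsp90aa1, with no overlap with the other groups in these 4 genes.

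Neutrophil and immediate-early markers moved in the directions of the 7 chaperones that rose, and macrophage and endothelial markers did so only in part. Of those 7, only Hspa8, Hsp90aa1 and Bag3 were called between the PMA groups. The 6 measured neutrophil markers, led by S100a9 and Csf3r, summed to 232 to 489 CPM in PMA_1002, 1055 to 2429 CPM in PMA_ethanol and 15.1 to 26.5 CPM in Control. All 6 rose with PMA_ethanol versus Control and fell with PMA_1002 versus PMA_ethanol. The 8 immediate-early genes, led by Junb and Egr1, summed to 1145 to 1434 CPM in PMA_1002, 1886 to 2927 CPM in PMA_ethanol and 313 to 503 CPM in Control, and 7 of 8 moved in those directions. Macrophage markers, led by Lyz2 and Mrc1, summed to 873 to 1163 CPM in PMA_1002, 1332 to 1824 CPM in PMA_ethanol and 541 to 719 CPM in Control, with 3 of 7 higher and 1 lower in PMA_ethanol than in Control. With PMA_1002 versus PMA_ethanol 4 of the 7 macrophage markers fell and 1 rose. The median log2 fold change of the macrophage list was 0.17 for PMA_ethanol versus Control and -0.55 for PMA_1002 versus PMA_ethanol. Endothelial markers, led by Pecam1 and Cdh5, summed to 164 to 184 CPM in PMA_1002, 214 to 242 CPM in PMA_ethanol and 147 to 181 CPM in Control. Of these 4, 2 rose with PMA_ethanol versus Control and 2 fell with PMA_1002 versus PMA_ethanol. None of the neutrophil, immediate-early, macrophage and endothelial markers was at 0 in a group, and their part in the chaperone levels was not tested.

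Per kilobase of exon, over all annotated exons of a gene, Hspb1 and Hspa8 had the highest levels and Hsph1 the lowest in every group. By mean CPM without length Hspe1 was the lowest, at 26.0 in PMA_1002, 31.8 in PMA_ethanol and 14.9 in Control. In PMA_1002 libraries Hspb1 stood at 154 ± 18.9 and Hspa8 at 140 ± 11.9 CPM per kilobase (SD, n = 6), neighbours within their spread. PMA_ethanol libraries had Hspa8 first at 191 ± 7.99, then Hspb1 at 114 ± 18.7 CPM per kilobase (SD, n = 4), with no overlap. Control libraries had Hspb1 at 132 ± 9.42 and Hspa8 at 80.1 ± 2.52 CPM per kilobase (SD, n = 5), also apart.

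Next in PMA_1002 came Hspd1 at 74.8, apart from the rest, and then Hspa1b, Hsp90aa1 at 47.9, Dnajb1 at 45.1 and Bag3 at 41.5 CPM per kilobase. From Hspa1b on, each of these 4 genes overlapped its neighbour. PMA_ethanol had Hspd1 at 83.3 and Hsp90aa1 at 69.5, then Dnajb1 at 53.6 and Bag3 at 51.2, and Hspa1b after these at 32.6 CPM per kilobase. Control had Hspa1b next after Hspa8 at 46.0 CPM per kilobase, overlapping Hspd1 at 42.7, while Hsp90aa1 at 22.6 came after Dnajb1 and Bag3. Hspa1b and Hsp90aa1 thus changed places in the order between PMA_ethanol and Control. Hspa1a, Hspe1 and Hsph1 were the last 3 in all groups, with Hsph1 at 6.21 in PMA_1002, 7.51 in PMA_ethanol and 3.62 CPM per kilobase in Control. Genes with much shared sequence may read too low on this scale. So may genes whose transcripts are shorter than all their annotated exons together.

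The genes whose profile was nearest to each chaperone were sought among 12275 genes with a mean of at least 5 CPM, by the root mean square difference of centred log2 CPM over the 15 libraries. Hspa4, an HSP110 relative of Hsph1, was nearest to both Hsph1 (difference 0.09) and Hspd1 (0.07), and Cct6a, a subunit of the cytosolic chaperonin, was second for Hspd1 (0.08). The inducible pair had other neighbours. Pdlim2 and Dsp, a desmosome component, were nearest to Hspa1a (0.08 and 0.09), followed by Ano9, and Zfp706, Pdlim2 and Tmem45a were nearest to Hspa1b (0.08 to 0.11). Hspb1 itself was nearest to Ecm1, Csnk2a2 and Itpkb (0.12 to 0.13). Hspa8 had Atf6, Lima1 and Riok3 at 0.08, and Hsp90aa1 had Slk, Rock2 and Tpm4 at 0.11 to 0.12. Dnajb1 lay nearest to Tbc1d10a, Slc19a2 and Loxl4, Bag3 to Kctd10, Tfe3 and Smurf1, and Hspe1 to Hnrnpf, Fbl and Ruvbl1, and Tars and Gspt1 completed the list of Hsph1. The root mean square of a member around its own mean ran from 0.23 (Hspb1) to 0.66 (Hsp90aa1), with Hspa1a at 0.25 and Hspa1b at 0.27. Equal distances thus do not mean equal likeness of profile. All distances rest on the same libraries and the same group differences and describe likeness only.

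Of 93 other chaperone and cochaperone genes tested, in 9 lists, 46 rose and 18 fell with PMA_ethanol versus Control (68.8% called, beside 68.4% of all genes). By direction 49.5% rose beside 32.5% of all genes, and 19.4% fell beside 35.9%. With PMA_1002 versus PMA_ethanol 7 rose and 23 fell (32.3%, beside 35%), that is 7.53% rose beside 17% and 24.7% fell beside 18%. With PMA_1002 versus Control 41 rose and 9 fell (53.8%, beside 55%), or 44.1% beside 28.4% and 9.68% beside 26.7%. The shares called were near those of all genes, while the shares by direction differed from them, without a test of that difference. The median log2 fold changes were 0.28, -0.10 and 0.17 in that order.

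The CCT chaperonin, which folds actin and tubulin, and its feeder prefoldin had 11 of 14 genes higher and 1 lower with PMA_ethanol versus Control (median log2 fold change 0.69). Cct8 averaged 308 ± 33.6 CPM in PMA_ethanol (SD, n = 4) and 153 ± 1.82 CPM in Control (SD, n = 5), and Cct3 averaged 264 ± 17.9 CPM in PMA_ethanol and 119 ± 15.4 CPM in Control. With PMA_1002 versus PMA_ethanol 6 of 14 fell, among them Cct8 (-0.35, SE 0.077, adjusted p = 0.00184, edgeR), Cct3 (-0.35, adjusted p = 0.00569) and Cct7 (-0.27, adjusted p = 0.00661). PMA_1002 versus Control had 10 higher and 1 lower.

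Of the other HSP70 and HSP110 genes, 3 of 7 were higher and 4 lower for PMA_ethanol versus Control. Hspa4 rose by 0.97 (SE 0.089, adjusted p = 4.71e-08, edgeR), while Hspa12a and Hspa12b, distant HSP70 relatives, had log2 fold changes of -1.43 (SE 0.143) and -1.69 (SE 0.197). Hspa4l (-0.64) and Hspa2 (-0.90) were lower too, and Hspa2 was named after its values were seen. Between PMA_1002 and PMA_ethanol 4 of these rose, Hspa12a by 1.06, Hspa12b by 1.23 and Hspa4l by 0.43 on the log2 scale among them, and 1 fell.

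Of the other HSP90 genes and cochaperones, 7 of 11 rose and 1 fell with PMA_ethanol versus Control. Stip1, which links HSP70 to HSP90, averaged 134 ± 11.1 CPM in PMA_ethanol and 77.8 ± 4.91 CPM in Control (log2 fold change 0.78, SE 0.077, adjusted p = 1.03e-07, edgeR). Cdc37, the kinase-specific partner of HSP90, rose by 0.44 and Ahsa1, which speeds its ATP use, by 0.44. With PMA_1002 versus PMA_ethanol 1 of 11 changed, Stip1 at -0.24 (SE 0.073, adjusted p = 0.0162, edgeR).

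J proteins had 6 of 12 higher and 2 lower with PMA_ethanol versus Control, and the smallest adjusted p belonged to Dnajc5 (0.92, SE 0.070), Dnajb6 (0.65) and Dnaja1 (0.85). Between PMA_1002 and PMA_ethanol Dnajc5 (-0.44) and Dnajb6 (-0.35) were among 3 that fell, and Dnajb4 rose (0.40, adjusted p = 0.0193, edgeR). Among exchange factors and other HSP70 cochaperones 3 of 8 rose and 3 fell with PMA_ethanol versus Control, with Hspbp1 at 0.97, Bag5 at 0.47 and Bag4 at -0.62. Bag4 was the 1 of 8 that rose with PMA_1002 versus PMA_ethanol (0.71, SE 0.088, adjusted p = 1.1e-05, edgeR). Of 5 other small heat shock proteins 1 fell with PMA_ethanol versus Control (Hspb8, -0.37, adjusted p = 0.0202, edgeR), and all 5 had adjusted p of 0.145 or more in PMA_1002 versus PMA_ethanol.

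Mitochondrial chaperones and proteases had 5 of 12 higher and 2 lower with PMA_ethanol versus Control. Grpel2 (1.12) and Grpel1 (0.93), exchange factors of the mitochondrial HSP70, and Hspa9 (0.69), that HSP70 itself, led them, beside the members Hspd1 and Hspe1. With PMA_1002 versus PMA_ethanol 3 fell, Grpel2 (-0.39) and Grpel1 (-0.30) among them, and Clpx, a mitochondrial unfoldase, rose (0.22, adjusted p = 0.011, edgeR). Endoplasmic reticulum chaperones had 9 of 13 higher with PMA_ethanol versus Control and 8 of 13 lower with PMA_1002 versus PMA_ethanol. Hspa5 had the largest change of this list in each, 1.69 in the first comparison and -0.91 in the second.

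Of the heat shock factors, Hsf1 was higher, and Hsf2 and Hsf4 lower, in both PMA groups than in Control. Hsf1 averaged 40.8 ± 2.92 CPM in PMA_1002, 45.8 ± 2.15 CPM in PMA_ethanol and 30.6 ± 3.04 CPM in Control (SD, n = 6, 4 and 5). It rose with PMA_ethanol versus Control (0.58, SE 0.087, adjusted p = 1.34e-05, edgeR) and PMA_1002 versus Control (0.41, SE 0.079, adjusted p = 0.000292). Hsf2 averaged 15.3 ± 2.58 CPM in PMA_1002, 13.0 ± 4.10 CPM in PMA_ethanol and 29.7 ± 3.87 CPM in Control, lower than Control in PMA_1002 (-0.96) and in PMA_ethanol (-1.26). Hsf4, named after its values were seen, had 1.80 ± 0.483 CPM in PMA_1002, 1.65 ± 0.443 CPM in PMA_ethanol and 2.91 ± 0.555 CPM in Control. Its log2 fold change was -0.73 (adjusted p = 0.0113, edgeR) for PMA_1002 versus Control and -0.84 (adjusted p = 0.00802) for PMA_ethanol versus Control. In this list of 11 factors and targets, 2 rose and 4 fell with PMA_ethanol versus Control. The other riser was Rgs2, a brake on G protein signalling, at 59.6 ± 8.32 CPM in PMA_1002, 185 ± 53.7 CPM in PMA_ethanol and 20.7 ± 3.07 CPM in Control.

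**Figure D4:**
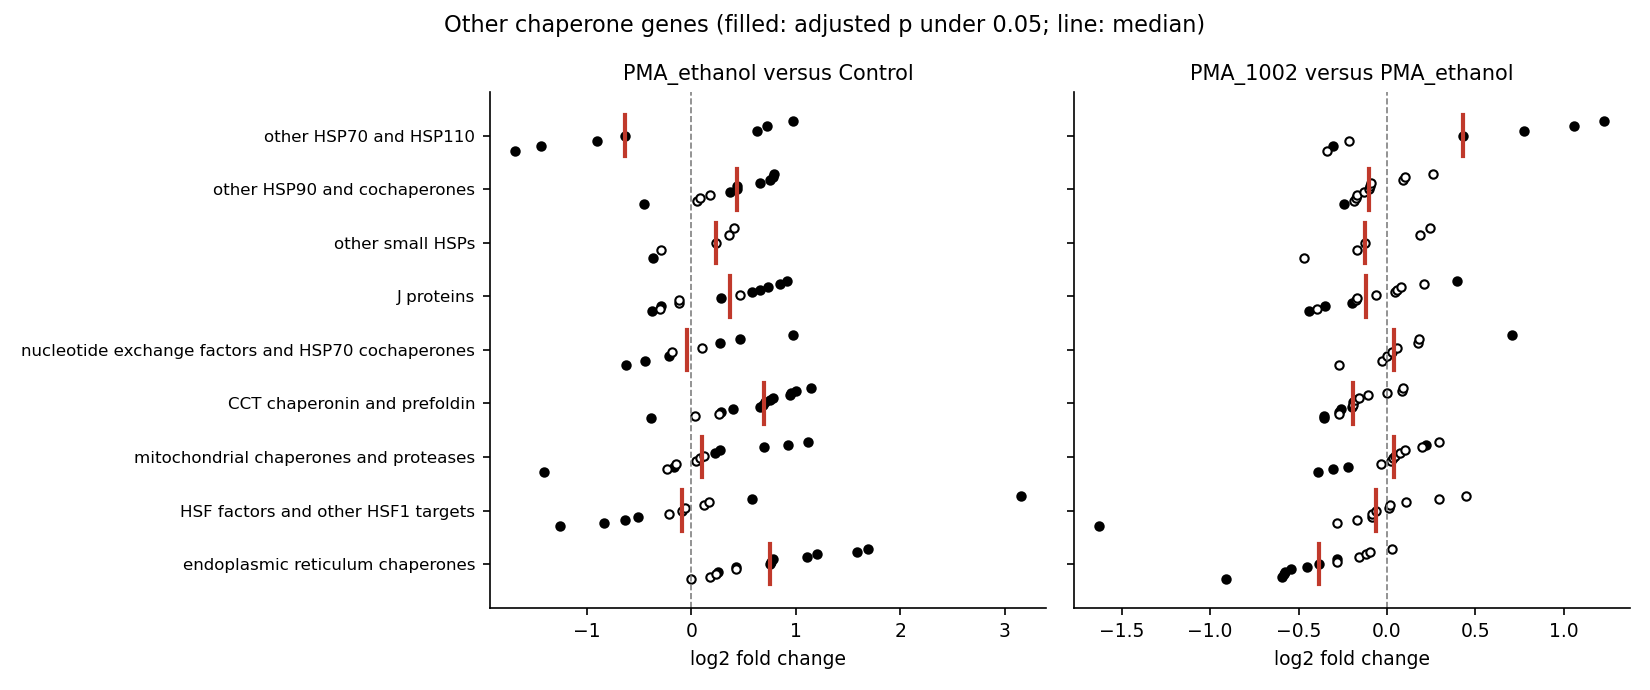
Log2 fold change (x axis) of each gene (points, filled for adjusted p under 0.05) of 9 lists of other chaperones (rows) for PMA_ethanol versus Control (left) and PMA_1002 versus PMA_ethanol (right), with the list median as a line. The CCT and prefoldin and the endoplasmic reticulum lists have medians of 0.69 and 0.76 on the left and of -0.19 and -0.39 on the right.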

How the data were processed

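Ear RNA of 15 libraries was analysed, grouped by sample title. Per the labels' protocols, the RNA was polyA-selected and the library kit keeps strand. The deposited values are whole-number counts of reads per gene, 1 table per library, with no normalization. STAR 2.5, HTSeq, FastQC 0.11.5 and MultiQC 0.8 were used with GRCm38, per the submitters' processing notes. Neither the annotation release nor HTSeq's strand setting is given in the sources used here. Reads given to no gene, 28.5% to 32.8% of each table (those with several positions 16.0% to 20.1%), stayed out of library sizes and tests.

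GENCODE M21 gave symbols to 48435 of 48795 genes, exon lengths and transcripts. Promoter windows came from RefSeq (GRCm38.p6). Counts were fitted in R 4.3.3 with edgeR 4.0.16 (TMM, filterByExpr, robust quasi-likelihood, the 3 groups as the only term, all 15 libraries), and in DESeq2 1.42.0 as an alternative. The SE comes from the F statistic. The biological coefficient of variation was 0.185. Over the 31 pairs of libraries of 1 group, chi-square per degree of freedom was 2.93 to 27.0, so no library was counted as a repeat. Ratios within libraries were compared by two-sided exact permutation tests (scipy 1.17.1), adjusted over the 9 tests, and were chosen after the values were seen.

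The members, the lists of related genes and markers and the tests were chosen with earlier results of these data known. All 10 members are named. Of related lists, up to 3 called genes of lowest adjusted p are named in each comparison, or up to 2 where none was called. Some lists have fewer or none named. Of marker lists the 2 genes of highest CPM are named, and for each member the 3 nearest profiles. Alternatives were other scalings, filters and tests, marker levels as covariates, the replicate number, the 2 groups alone and leaving out each library.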

Additional observations from a re-analysis of the deposited data

Results flagged for a closer look

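Hspe1 in Control library 3 stood far from the other Control libraries, at 20.6 CPM with its nearest neighbour at 14.3 CPM, a gap of 0.808 of the range of the group. It was the 1 of 30 groups of gene and condition in which a library stood so far out, and chance alone flags about 1 group in 20. Without that library the log2 fold change of Hspe1 was 1.22 (adjusted p = 2.08e-07, edgeR) for PMA_ethanol versus Control and 0.95 (adjusted p = 3.97e-06) for PMA_1002 versus Control. Among Control libraries it also had the highest mean log2 CPM of hair follicle markers, 7.80 against 1.41 to 6.65. Its mean log2 CPM of skeletal muscle markers was the lowest, 6.47 against 7.24 to 8.10. Reads in genes were the most, 11501228 against 5371961 to 6042856. What sets Hspe1 apart in that library was not tested.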

How the results depend on the processing

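Across the alternatives, 9 to 10 members were called for PMA_ethanol versus Control, beside 38.3% (no filter) to 73% (upper-quartile scaling) of all genes. For PMA_1002 versus PMA_ethanol 5 to 7 were called, beside 16.3% (no filter) to 38.8% (library size alone) of all genes. For PMA_1002 versus Control 7 to 8 were called, beside 28.1% (no filter) to 59.3% (upper-quartile scaling) of all genes. Upper-quartile scaling turned PMA_1002 versus Control round for Hspa1a (-0.019, adjusted p = 0.847, edgeR), Hspa1b (-0.037, adjusted p = 0.647) and their sum (-0.032, adjusted p = 0.674), none of them called. That scaling moved the median of all genes by -0.24, 0.08 and -0.16 in the order of the comparisons above, and library size alone by -0.23, 0.11 and -0.12. The share of called genes that were higher was 47.5%, 48.7% and 51.5% with TMM, 33.6%, 61.8% and 34.6% with upper-quartile scaling and 34%, 67.4% and 38.6% with library size alone. Hspb1 fell with PMA_ethanol versus Control under upper-quartile scaling (-0.46, adjusted p = 0.00109), library size alone (-0.45, adjusted p = 0.00121) and the hair follicle covariate (-0.23, adjusted p = 0.0462). It rose with PMA_1002 versus Control with no filter (0.27, adjusted p = 0.0344) and with the 2 groups alone (0.21, adjusted p = 0.0494). Bag3 lost its call between the PMA groups with library size alone (-0.18, adjusted p = 0.0675), where Hsph1 (-0.15), Hspd1 (-0.04), Hspe1 (-0.16) and Dnajb1 (-0.13) came nearer to 0, and Dnajb1 gained one with RLE size factors (-0.29, adjusted p = 0.0297). Hspa1b rose with PMA_1002 versus Control without Control library 5 (0.17, adjusted p = 0.0438). Beyond the numbers shared in the titles nothing pairs the libraries, and same-numbered libraries had residual correlations from -0.53 to 0.58. With a replicate block 9, 7 and 7 members were called, holding 9, 6 and 7 of those called without it, and Dnajb1 was the addition (-0.28, adjusted p = 0.0429). For all genes the block called 65.8%, 26.6% and 52.1%. The causes of these shifts were not tested.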
